A study of Rattus norvegicus with 9 samples.

Results

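MiR-204 and miR-211 are microRNAs of 1 seed family whose genes lie inside different ion channel genes, Trpm3 and Trpm1, in the RefSeq annotation of rat assembly GRCr8. They were followed here across small RNA libraries from rat hippocampus. All rows of the deposited table named miR-204 or miR-211 with any arm ending were taken, which gave 3 of 633 rows: rno-miR-204-5p, rno-miR-204-3p and rno-miR-211-5p, named below without the species prefix. The table lists 1 arm of the miR-211 hairpin, so miR-211-3p was not analysed here. The rows were taken by name, but the pair was chosen by its group values in these libraries, namely the lower miR-204-5p after MK-801 and the higher miR-211-5p after clozapine. Differences between groups are therefore described, with the standard error (SE) of a fit across all miRNAs, and no test of a member is given.

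The libraries came from dissected, frozen hippocampus of Sprague-Dawley rats, labelled as postnatal day 21 and 5 weeks old when injections began. These ages differ, since rats 5 weeks old at the first injection were past postnatal day 21, and which holds is not settled here. Vehicle rats (VEH) received saline for 14 days and again for 7 days. MK-801 rats were injected once a day for 14 days with 0.2 mg/kg of MK-801, which blocks NMDA receptor channels and serves as a rodent model of schizophrenia, and then with saline for 7 days. MK-801+CLO rats had that MK-801 course followed by 7 days at a dose of 10 mg/kg of CLO, which the study's title gives as the antipsychotic clozapine, and no group had clozapine alone. The protocol had 10 rats per group, and each group has 3 libraries. Whether a library is 1 rat or a pool, and whether libraries are separate animals, is not stated, so the counts of miRNAs past a p threshold and the SE rest on the spread from library to library, part or all of which may be technical. Library totals ran from 10665718 to 18284905 miRNA counts, and levels are given as CPM, each count scaled to the same library total.

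A microRNA hairpin is cut by Drosha and Dicer into a duplex of a 5p and a 3p strand, of which 1 is usually kept in an Argonaute protein and the other degraded. The kept strand finds mRNAs mainly through its seed, bases 2 to 8 counted from the 5′ end. MiR-204 is known as a leading miRNA of the choroid plexus and the retinal pigment epithelium, and miR-211 as a miRNA of pigment cells, where the factor MITF drives Trpm1. Choroid plexus lies along the ventricle next to the hippocampus, and its epithelium also expresses the serotonin receptor gene Htr2c.

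The mature sequences show what the pair shares and how closely its reads resemble each other. They are from RefSeq (GRCr8), 5′ to 3′, with the seed in capitals, and the 3 listed sequences equal those of the deposited table once T is read as U.
miR-204-5p: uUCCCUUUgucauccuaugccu
miR-211-5p: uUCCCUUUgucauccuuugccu
miR-204-3p: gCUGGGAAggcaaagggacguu
Both 5p arms are 22 bases long, share the seed UCCCUUU and are identical at 21 positions. They differ by A17U, with the miR-204-5p base first and positions counted from the 5′ end, which lies outside the seed. No other row of the table, and no other mature miRNA in the RefSeq table, had this seed, and no other row came within 2 differences of either 5p arm. MiR-204-3p has the seed CUGGGAA, which no other row shared.

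The hairpins differ far more than the 5p arms do, which is shown by printing them whole with both mature arms in capitals.
Mir204: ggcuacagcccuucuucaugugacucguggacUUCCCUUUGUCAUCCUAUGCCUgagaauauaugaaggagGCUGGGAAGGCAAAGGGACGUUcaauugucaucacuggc
Mir211: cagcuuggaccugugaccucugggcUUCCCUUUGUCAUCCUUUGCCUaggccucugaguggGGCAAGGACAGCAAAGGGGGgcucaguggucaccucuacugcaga
The miR-204 hairpin is 110 bases long with 17 bases between its arms, and the miR-211 hairpin is 106 bases long with 14 between them. Because 1 base separates the 5p arms, counting that tolerates a mismatch could move reads between them. The handling of such reads was not found in the labels or notes, so the level of miR-211-5p, the rarer member, is uncertain to that extent.

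MiR-204-5p was an abundant hippocampal miRNA that was highest and most variable in vehicle rats and lowest after MK-801 plus clozapine. It ranked 38 of 633 miRNAs by mean level. In VEH it stood at 3798, 2613 and 8583 CPM in replicates 1, 2 and 3. It was at 2537, 2634 and 2618 CPM in MK-801 and at 1994, 2552 and 1900 CPM in MK-801+CLO. VEH replicate 3 lay far above every other library, VEH replicate 1 was the next, and VEH replicate 2 was level with the MK-801 libraries. The group means were 4998 ± 3161 CPM in VEH, 2596 ± 51.7 CPM in MK-801 and 2149 ± 353 CPM in MK-801+CLO (SD, n = 3 each). These libraries rest on 25420 to 156938 counts of miR-204-5p, so counting error is small: the 95% Wilson interval of VEH replicate 3 was 8541 to 8625 CPM.

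**Figure D1:**
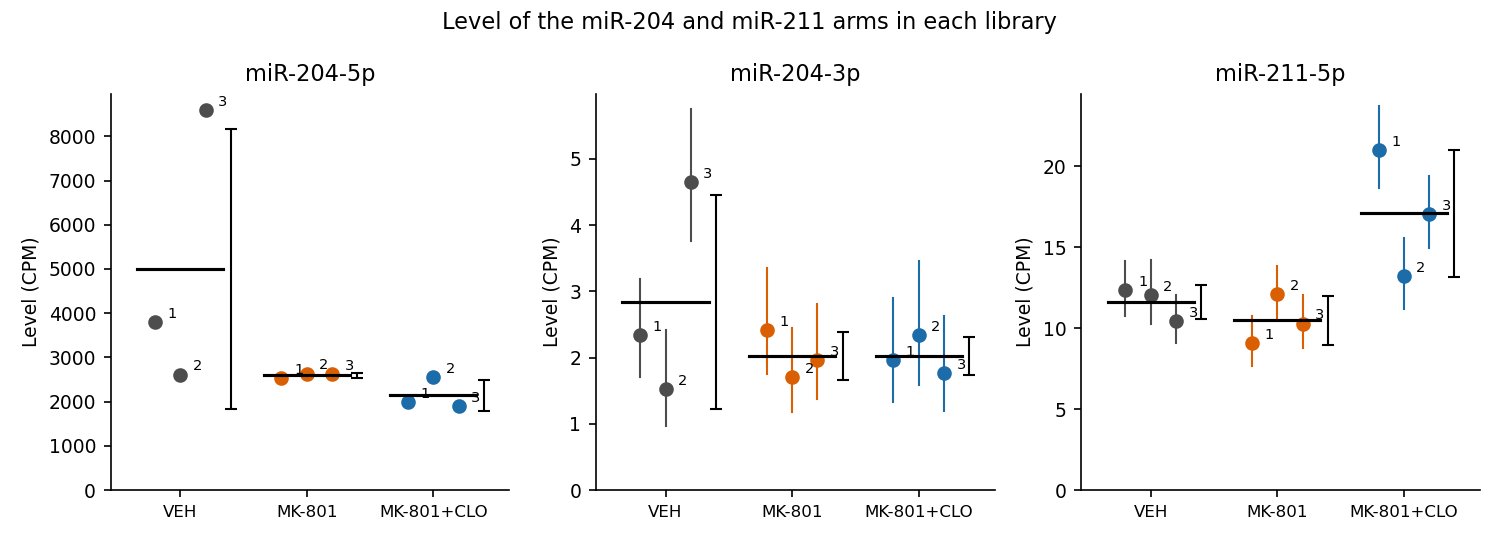
Level in CPM (linear axes from 0) of miR-204-5p, miR-204-3p and miR-211-5p in each library, by group. Points are libraries with their replicate number, thin lines 95% Wilson intervals, black bars the group mean with its SD beside it (n = 3). MiR-204-5p reached 8583 CPM in VEH replicate 3, and miR-211-5p was at 13.2 CPM or more in the MK-801+CLO libraries and at 12.3 CPM or less in the others.

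From the edgeR fit, miR-204-5p had a log2 fold change of -0.92 ± 0.35 (SE) in MK-801 against VEH, -0.23 ± 0.35 in MK-801+CLO against MK-801 and -1.16 ± 0.35 in MK-801+CLO against VEH, 3 libraries a side. Among 469 tested miRNAs the first of these was the 12th largest in size and the last the 17th. The comparisons share libraries and are not independent of each other. Between MK-801 and VEH 0 of 3 members had groups that did not overlap, where 5.97% of tested miRNAs lay wholly above VEH and 7.89% wholly below. In CPM the MK-801+CLO libraries all lay below the VEH libraries for miR-204-5p, as for 11.5% of tested miRNAs. The nearest were 2552 CPM in MK-801+CLO replicate 2 and 2613 CPM in VEH replicate 2. The fit also rescales library totals, by TMM factors of 0.965 and 1.03 for these libraries. Divided by these factors the 2 libraries change order, so the groups overlap on that scale. The MK-801+CLO libraries overlapped with MK-801, below which 0 of 3 members and 6.82% of tested miRNAs lay wholly. The adjusted threshold of 0.05 was passed by 0 of 469 miRNAs in edgeR in each comparison (0%). At an unadjusted p under 0.05 there were 24 miRNAs (5.12%) in MK-801 against VEH, 39 (8.32%) in MK-801+CLO against MK-801 and 70 (14.9%) in MK-801+CLO against VEH. DESeq2 called 1, 2 and 11 miRNAs at an adjusted 0.05, and limma voom 0, 0 and 0. Which miRNAs DESeq2 called is not given for the members, since the pair was chosen by these group values.

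VEH replicate 3 sets much of the miR-204-5p values. Without it the log2 fold changes were -0.28 ± 0.18 in MK-801 against VEH and -0.52 ± 0.18 in MK-801+CLO against VEH. Both kept their sign, and the SE fell with the difference. Between MK-801 and MK-801+CLO the value was -0.39 without MK-801+CLO replicate 2, the library at 2552 CPM.

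**Figure D2:**
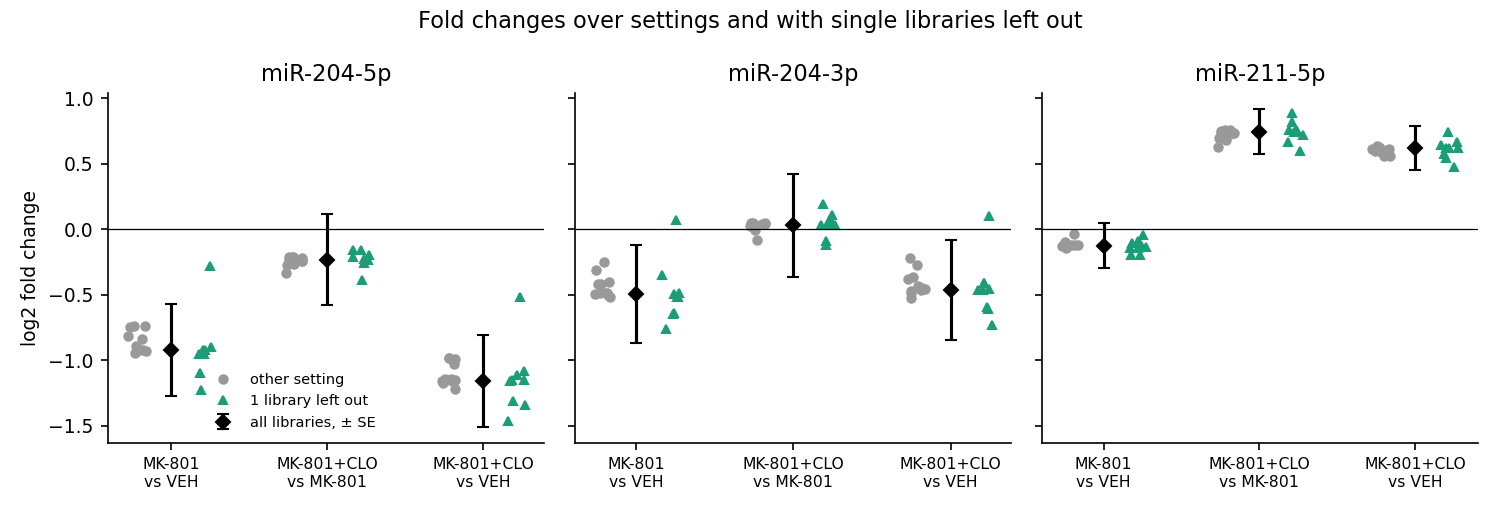
Log2 fold changes of the 3 arms in the 3 comparisons: black diamonds with all libraries ± SE, grey points under other tools, scalings, filters or a replicate block, green triangles with 1 library left out. The separate triangles of miR-204-5p at -0.28 and -0.52 and of miR-204-3p at 0.07 and 0.10 are the fits without VEH replicate 3, and miR-204-3p also turned sign in MK-801+CLO against MK-801 with upper-quartile scaling, with library totals and without replicate 2 of either group.

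MiR-204-3p, the strand opposite miR-204-5p in the same hairpin, was rare. It was at 2.34, 1.53 and 4.65 CPM in VEH, at 2.42, 1.70 and 1.97 CPM in MK-801 and at 1.96, 2.34 and 1.77 CPM in MK-801+CLO. VEH replicate 3 was again the highest library, and the other 8 lay close together, with VEH replicate 2 the lowest. These levels rest on 18 to 85 counts per library, and the 95% Wilson interval of VEH replicate 2 ran from 0.968 to 2.42 CPM. Group means were 2.84 ± 1.62, 2.03 ± 0.363 and 2.03 ± 0.292 CPM in VEH, MK-801 and MK-801+CLO (SD, n = 3 each), and all groups overlapped. The log2 fold changes were -0.49 ± 0.37 in MK-801 against VEH, 0.03 ± 0.39 in MK-801+CLO against MK-801 and -0.47 ± 0.38 in MK-801+CLO against VEH. Without VEH replicate 3 the values against VEH turned to 0.07 and 0.10. The value against MK-801 was -0.12 without MK-801 replicate 2, -0.09 without MK-801+CLO replicate 2, -0.0831 with upper-quartile scaling and -0.00643 with library totals.

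The 5p strand outnumbered the 3p strand in every library, and by more in VEH than in MK-801 or MK-801+CLO. Counts of miR-204-5p per count of miR-204-3p were 1625, 1709 and 1846 in VEH, 1048, 1547 and 1332 in MK-801, and 1017, 1089 and 1073 in MK-801+CLO. All VEH libraries lay above all libraries of the other groups, while MK-801 and MK-801+CLO overlapped. The share of other hairpins with such a separation was not computed. The numerator, miR-204-5p, is also a value by which the pair was chosen, so this is a description only. The 3p counts limit this ratio: its 95% exact Poisson interval, which covers counting error of the 3p strand only, was 1189 to 2286 in VEH replicate 1 and 689 to 1571 in MK-801+CLO replicate 1. With counts summed over a group the ratio was 1768 (1500 to 2099) in VEH, 1290 (1055 to 1594) in MK-801 and 1059 (844 to 1349) in MK-801+CLO. The intervals of these sums leave out the spread between libraries and do not compare the groups. VEH replicate 3 gave 156938 of the 251078 5p counts and 85 of the 142 3p counts summed in VEH. The mean log2 difference of MK-801+CLO from VEH was -0.70, and between -0.75 and -0.65 with any 1 library left out.

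MiR-211-5p was scarce, and it was higher in MK-801+CLO than in the other groups. It ranked 307 of 633 miRNAs by mean level. It was at 12.3, 12.1 and 10.4 CPM in VEH, at 9.08, 12.1 and 10.3 CPM in MK-801 and at 21.0, 13.2 and 17.0 CPM in MK-801+CLO. All MK-801+CLO libraries lay above all others, with replicate 2 nearest to them, and VEH and MK-801 overlapped. The 135 to 268 counts per library leave a 95% Wilson interval of 11.2 to 15.6 CPM for MK-801+CLO replicate 2, which overlaps the 10.8 to 14.1 CPM of VEH replicate 1. Group means were 11.6 ± 1.02 CPM in VEH, 10.5 ± 1.52 CPM in MK-801 and 17.1 ± 3.90 CPM in MK-801+CLO (SD, n = 3 each).

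The fitted log2 fold changes of miR-211-5p were 0.74 ± 0.17 in MK-801+CLO against MK-801, 0.62 ± 0.17 in MK-801+CLO against VEH and -0.13 ± 0.17 in MK-801 against VEH. Of 3 members it alone had MK-801+CLO wholly above MK-801 and wholly above VEH, as 4.69% and 5.97% of tested miRNAs did. Its direction held in every setting and with each library left out, over 0.60 to 0.88 against MK-801 and 0.47 to 0.74 against VEH in the latter fits. Upper-quartile scaling, which moved the median of all miRNAs from -0.004 to -0.116 in MK-801+CLO against MK-801, gave 0.62 there.

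**Figure D3:**
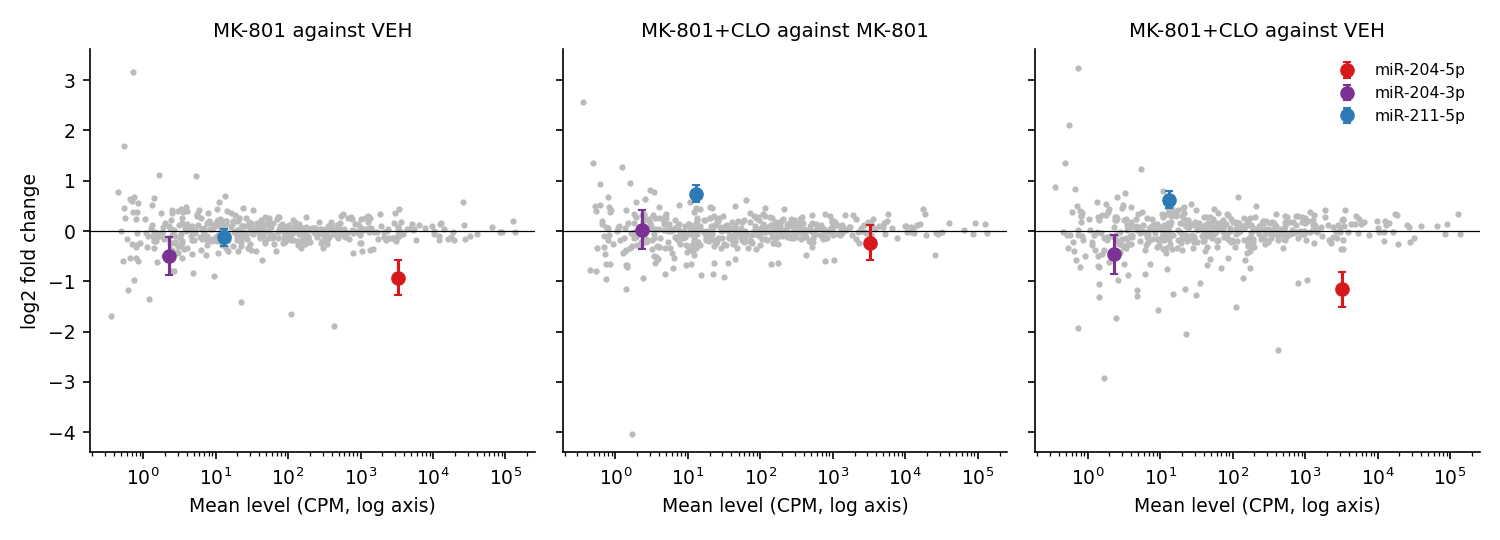
Log2 fold change against mean level (CPM, log axis) for the 469 tested miRNAs (grey) in each comparison, with miR-204-5p, miR-204-3p and miR-211-5p in colour (bars are SE). MiR-204-5p lies at -0.92 and -1.16 against VEH among abundant miRNAs of mostly small change, and miR-211-5p at 0.74 and 0.62 in the comparisons of MK-801+CLO. The value of miR-204-3p in MK-801+CLO against MK-801, 0.03, turned sign with upper-quartile scaling (-0.0831), with library totals (-0.00643), and without replicate 2 of MK-801 (-0.12) or of MK-801+CLO (-0.09).

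Because the 5p arms are equally long and nearly the same sequence, their counts can be set against each other within a library. Per library, miR-211-5p gave 3.25, 4.62 and 1.22 counts per 1000 counts of miR-204-5p in VEH, 3.58, 4.59 and 3.93 in MK-801, and 10.5, 5.18 and 8.97 in MK-801+CLO. All MK-801+CLO libraries lay above the rest, and VEH replicate 3 was the lowest. The ratio combines the lower miR-204-5p and the higher miR-211-5p by which the pair was chosen. Its separation of the groups is therefore a description and no further evidence, and no share over other pairs of miRNAs was computed. The lowest ratio had a 95% exact Poisson interval of 1.05 to 1.40 and the highest one of 9.32 to 11.9, which cover counting error only and not the spread between libraries. The part of miscounted reads in these ratios was not tested. The ratio of MK-801+CLO replicate 2 had an interval of 4.36 to 6.11, which overlaps that of VEH replicate 2 at 3.89 to 5.44. As mean log2 differences, MK-801+CLO lay 0.97 above MK-801 and 1.58 above VEH, and with 1 library left out these ran over 0.76 to 1.28 and 1.03 to 1.99. Of all counts with the shared seed, miR-211-5p made up 0.302 ± 0.170% in VEH, 0.402 ± 0.0511% in MK-801 and 0.816 ± 0.272% in MK-801+CLO. The summed level of the seed family followed miR-204-5p, at 5010 ± 3160, 2607 ± 53.0 and 2166 ± 350 CPM in the same order (SD, n = 3 each).

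**Figure D4:**
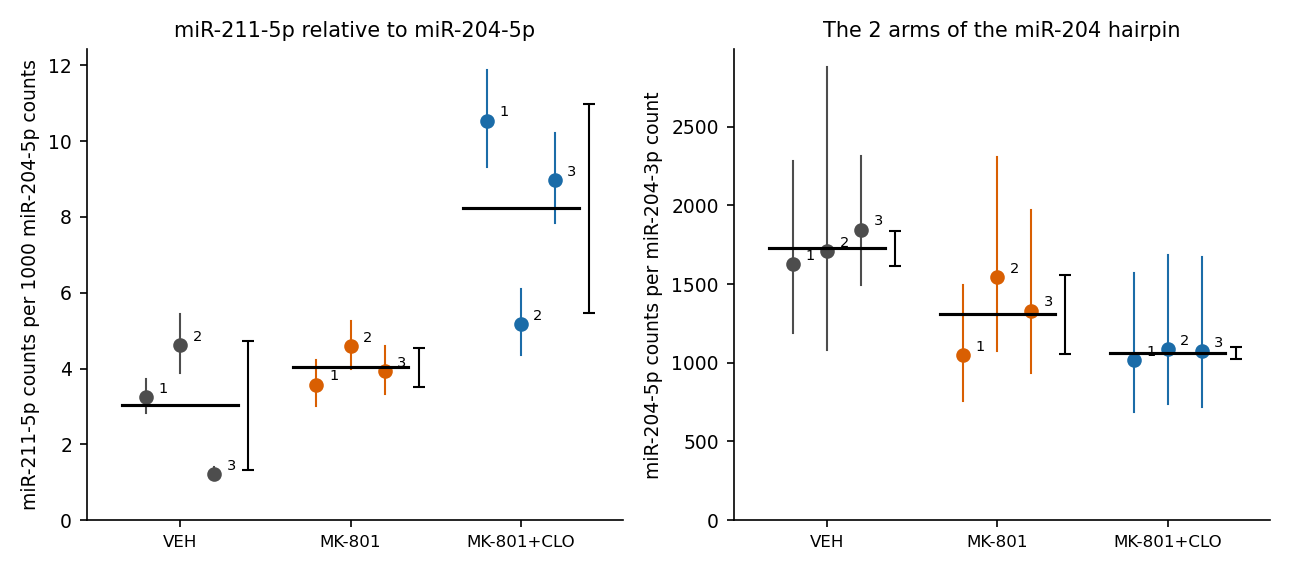
Left, counts of miR-211-5p per 1000 counts of miR-204-5p, and right, counts of miR-204-5p per count of miR-204-3p, in each library (linear axes from 0). Points are libraries with their replicate number, thin lines 95% exact Poisson intervals of the rarer strand's count, black bars the group mean with its SD beside it (n = 3). On the left the MK-801+CLO libraries lie at 5.18 to 10.5 above the others, and on the right the VEH libraries at 1625 to 1846.

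Over the 9 libraries the strands of the miR-204 hairpin had a positive correlation that rests on the high VEH libraries, and miR-211-5p had a negative one with miR-204-5p. These values share the group differences by which the pair was chosen, so they are given as a description with no p. Of 3 relations computed on log2 CPM after TMM scaling, miR-204-5p with miR-204-3p had Pearson r = 0.86 and Spearman rho = 0.68. Without VEH replicates 1 and 3, the libraries farthest from the median of miR-204-5p, r was 0.20. MiR-204-5p with miR-211-5p had r = -0.51 and rho = -0.57, and r was -0.88 without the same libraries. Library by library, the highest miR-204-5p of VEH and of MK-801+CLO, in replicates 3 and 2, went with the lowest miR-211-5p of the group. In MK-801 the order depends on the scaling. In CPM replicate 2 was highest and replicate 1 lowest for both, but miR-204-5p lay between 2537 and 2634 CPM. The TMM factors of replicates 1, 2 and 3 were 0.989, 1.05 and 0.970. Divided by them, replicate 2 was lowest for miR-204-5p and still highest for miR-211-5p.

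The miRNAs most like miR-204-5p over the libraries were miR-1298 (r = 0.96) and miR-448-3p (r = 0.91), whose genes lie inside Htr2c in GRCr8. They were followed by miR-323-3p (r = 0.85), miR-667-3p (r = 0.85) and miR-320-3p (r = 0.83), among 332 tested miRNAs with a mean of at least 10 CPM. Without VEH replicate 3, r over 8 libraries was 0.83 for miR-1298, 0.69 for miR-448-3p, 0.58 for miR-323-3p, 0.85 for miR-667-3p and 0.93 for miR-320-3p, and in that order they ranked 7, 14, 27, 2 and 1 of 332. MiR-1298 and miR-448-3p thus held their first places only with that library. Over all 9 libraries the Spearman rho of miR-448-3p was 0.40 and that of miR-1298 was 0.73, against 0.90 for miR-667-3p. MiR-1298 stood at 482, 272 and 1884 CPM in VEH, at 170, 343 and 198 CPM in MK-801, and at 142, 195 and 156 CPM in MK-801+CLO. Its highest library was VEH replicate 3, as for miR-204-5p, and VEH replicate 1 and MK-801 replicate 2 came next. At the other end of the ranking were miR-340-5p (r = -0.79), miR-3577 (r = -0.76) and miR-124-5p (r = -0.76), and miR-211-5p ranked 285 of 332.

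The miRNAs most like miR-211-5p were others: miR-128-3p (r = 0.93), an abundant neuronal miRNA, miR-126a-3p (r = 0.88) of endothelium, miR-212-3p (r = 0.86), induced by neuronal activity, miR-150-5p (r = 0.86) of lymphocytes and miR-181c-3p (r = 0.84). Without VEH replicate 3 these stood at 0.92, 0.87, 0.85, 0.85 and 0.84, and miR-128-3p remained first. MiR-128-3p was at 23553, 15518 and 22118 CPM in MK-801+CLO and between 14241 and 18626 CPM in the other libraries, so replicate 2 of MK-801+CLO lay within the range of the other groups. The least like were miR-374-5p (r = -0.82), miR-34b-3p (r = -0.76) and miR-221-3p (r = -0.75). These correlations share their libraries and describe them, and miRNAs are not independent replicates.

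Marker miRNAs of choroid plexus and of ciliated cells were also highest in VEH replicate 3. Bulk RNA cannot tell fewer cells of a type from less RNA per cell. The marker list matched 4 Htr2c-hosted rows, miR-1298, both arms of miR-448 and miR-1912-3p. Their summed level was 294 to 1975 CPM in VEH, 183.4 to 372 CPM in MK-801 and 156 to 208 CPM in MK-801+CLO, and each had counts in all 9 libraries. Of the 3 that were tested, 3 had a log2 fold change below 0 in each comparison with 0 past the adjusted threshold. The share below 0 among all tested miRNAs was 53.5% in MK-801 against VEH, 51.2% in MK-801+CLO against MK-801 and 49.9% in MK-801+CLO against VEH. The 3 had medians of -1.41 in MK-801 against VEH, -0.63 in MK-801+CLO against MK-801 and -2.04 in MK-801+CLO against VEH, where the medians of all tested miRNAs were -0.018, -0.004 and 0.003. This sum with miR-204-5p was the third relation computed, at r = 0.96 and rho = 0.73, and r was 0.58 without VEH replicates 1 and 3.

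The list left out miR-764, whose gene also lies inside Htr2c in GRCr8, and its arms were added after their values were seen. MiR-764-3p was at 23.7, 57.1 and 63.2 CPM in VEH, at 31.3, 57.6 and 20.4 CPM in MK-801 and at 24.5, 16.7 and 26.2 CPM in MK-801+CLO. It was high in VEH replicates 2 and 3 and MK-801 replicate 2, not in VEH replicate 1, and its r with miR-204-5p was 0.44, rank 55 of 332. With both arms added, 6 rows summed to 356 to 2049 CPM in VEH, 219.5 to 437 CPM in MK-801 and 183.4 to 226 CPM in MK-801+CLO. All 5 tested rows were below 0 in each comparison with 0 past the adjusted threshold, at medians of -0.80, -0.64 and -1.73 in place of -1.41, -0.63 and -2.04. The sum then had r = 0.95 with miR-204-5p, and 0.52 without VEH replicates 1 and 3.

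Of motile cilia and ependyma, 6 rows were listed, both arms of miR-34b and miR-34c, which promote ciliogenesis, with miR-449a-5p and miR-449c-5p. They summed to 1104 to 1898 CPM in VEH, 942 to 1534 CPM in MK-801 and 497 to 1115 CPM in MK-801+CLO, and miR-449c-5p was at 0 in 8 of 9 libraries. All 5 tested rows were below 0 in each comparison with 0 past the adjusted threshold, at medians of -0.37, -0.85 and -1.15 in the same order. Arms of 1 hairpin share a precursor, so rows of this list and of the Htr2c-hosted list are not independent of each other. The 10 epithelial rows, of the miR-200 and miR-183 clusters, summed to 78.6 to 172 CPM in VEH, 76.7 to 180 CPM in MK-801 and 78.0 to 156 CPM in MK-801+CLO. Of 5 tested, 4 were below 0 in MK-801 against VEH, at a median of -0.16. In both comparisons of MK-801+CLO 3 were above 0, at medians of 0.81 against MK-801 and 0.52 against VEH. These were opposite in sign to the Htr2c-hosted and ciliary medians, with 0 past the adjusted threshold. Both medians are the values of miR-141-3p, at 21 to 76 counts per library, and miR-200a-3p above it had 0 to 12. MiR-182, most of the epithelial sum, was at -0.16 against MK-801 and -0.32 against VEH, and miR-183-5p at -0.44 and -0.03. The Htr2c-hosted and ciliary sums did not follow miR-204-5p in every library: MK-801 replicate 2 had 372 CPM of Htr2c-hosted and 1534 CPM of ciliary miRNAs, the highest of its group in both, with miR-204-5p at 2634 CPM beside 2537 and 2618 CPM. The part of such tissue in the miR-204-5p difference was not tested.

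**Figure D5:**
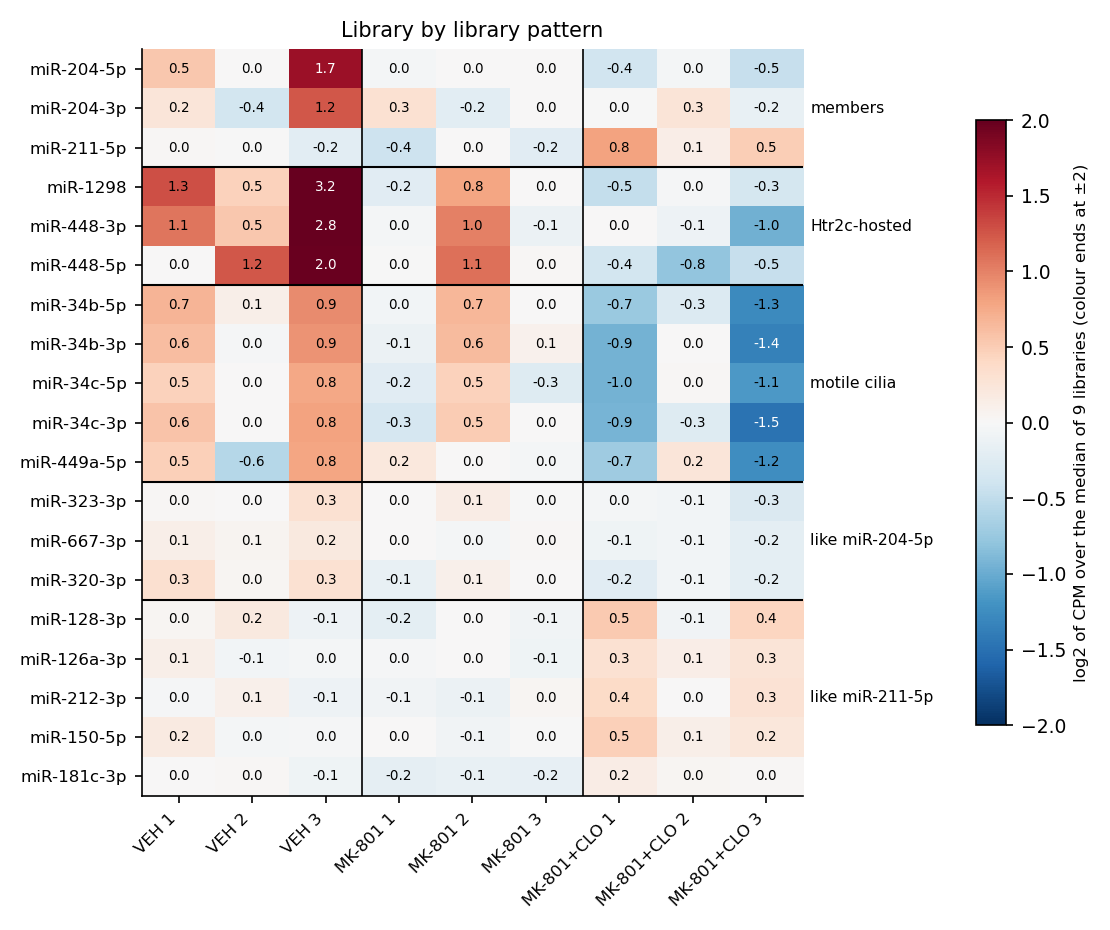
Log2 of each library's CPM over the median of the 9 libraries for the members, the tested Htr2c-hosted (without miR-764) and ciliary miRNAs and the miRNAs most like miR-204-5p and miR-211-5p (colour ends at ±2). VEH replicate 3 is high for miR-204-5p and its 3p strand, and for miR-1298 at 1884 CPM, while miR-211-5p is high in MK-801+CLO replicates 1 and 3.

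Neuronal miRNAs were abundant in every library, which cannot tell hippocampus from another brain region. The 10 listed rows of miR-124, miR-128, miR-132 and miR-138 summed to 41275 to 46923 CPM in VEH, 45500 to 57327 CPM in MK-801 and 43276 to 54282 CPM in MK-801+CLO. Of these 10 rows 8 were above 0 in MK-801 against VEH, 7 in MK-801+CLO against MK-801 and 9 in MK-801+CLO against VEH, at medians of 0.07, 0.20 and 0.30, with 0 past the adjusted threshold. Beside the higher miR-211-5p, vascular miRNAs (miR-126a, miR-143 and miR-145) summed to 25684 to 30250 CPM in MK-801+CLO, against 21841 to 25141 CPM in the VEH libraries and 22715 to 24167 CPM in MK-801. Of 5 tested vascular rows 2 were above 0 in MK-801 against VEH, 4 in MK-801+CLO against MK-801 and 4 in MK-801+CLO against VEH, at medians of -0.01, 0.16 and 0.28, with 0 past the adjusted threshold. With upper-quartile scaling 4, 3 and 4 vascular rows were above 0, at medians of 0.08, 0.04 and 0.25, and the neuronal medians were 0.17, 0.08 and 0.27. The part of neuronal or vascular cells in the miR-211-5p values was not tested. The shares above 0 among all tested miRNAs were 46.5%, 48.8% and 50.1%.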

How the data were processed

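The authors deposited 1 table of whole-number counts per mature miRNA and library, with a second set of values headed TPM. The deposited values headed TPM equal CPM, each count scaled by its library total (largest relative difference 0.000473%). The submitters' processing notes name cutadapt 1.14, Bowtie, DESeq and the build Rnor_6.0, without roles. The table held 21 blank lines and 1 name split over lines, which was rejoined. Libraries were grouped by their titles.

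All 469 miRNAs kept by filterByExpr (99.997% of counts) were fitted with edgeR 4.0.16 in R 4.3.3, with TMM scaling, quasi-likelihood tests, 1 mean per group over 9 libraries and Benjamini-Hochberg adjustment at 0.05. The fitting code was first tested on simulated data. SE is the absolute log2 fold change over the square root of F. Relations over libraries and the rankings by likeness are given as r and rho of log2 CPM after TMM scaling, with a prior count of 2 for single miRNAs. With library totals in place of TMM, miR-204-5p had r = 0.87 with miR-204-3p, -0.49 with miR-211-5p and 0.97 with the Htr2c-hosted sum. The exact permutation tests planned for the relations are not printed, since the members were chosen by the same values. Intervals (SciPy 1.17.1) are at 95% and cover counting error only. A count of 0 allows 0.164 to 0.281 CPM, taken as 3 counts. No library pair of a group agreed within sampling noise by chi-square.

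Members, marker lists and rules were chosen with earlier results of these data known. Named miRNAs are the members, the marker list rows, and for each 5p arm the 5 miRNAs with the highest and the 3 with the lowest Pearson r at a mean of at least 10 CPM. Alternatives were DESeq2 1.42.0, limma 3.58.1 (voom, and trend on log2 CPM with 2 pseudocounts), other scalings (RLE, upper quartile, library totals), filters (none, mean of at least 10 CPM), both arms of a hairpin summed, a replicate block, only the groups compared, and each library left out. The arm ratio with a library left out, the r without VEH replicate 3 and the Htr2c-hosted list with miR-764 were added after seeing the data. Sequences are from RefSeq (GRCr8), where 571 of 633 names matched. Coordinates are left out because the builds differ.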

Additional observations from a re-analysis of the deposited data

How the results depend on the processing

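Over the settings other than leaving out a library, 105 of 105 fold changes of the members moved by less than the SD between replicates, and 2 turned sign, both of miR-204-3p in MK-801+CLO against MK-801. The count of miRNAs past the adjusted threshold rose from 0 to 1, 2 and 11 in DESeq2 (MK-801 against VEH, MK-801+CLO against MK-801 and MK-801+CLO against VEH). With a library left out it ran over 0 to 1, 0 to 2 and 0 to 7, the upper ends without MK-801 replicate 2 and, for the other comparisons, without MK-801+CLO replicate 2. The count at an unadjusted p under 0.05 ran over 15 to 37, 18 to 52 and 34 to 84 in the same order. It was lowest without VEH replicate 3 in the first comparison, where it was 38 in the third, and without MK-801+CLO replicate 3 in the others; without MK-801 replicate 1 it was 23 in the second and without MK-801 replicate 2 it was 37 in the first. The fold change of miR-204-5p in MK-801 against VEH ran over -1.23 to -0.28, without VEH replicates 2 and 3 in turn. Pearson r of miR-204-5p with miR-204-3p ran over 0.38 to 0.90, lowest without VEH replicate 3. The cause was not tested.

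Replicate numbers do not pair the samples as far as the labels say, and same-numbered libraries of different groups correlated at -0.35 to 0.13 in their deviations from group means, 2 of 9 best with their own number. With the replicate number as a block, miR-204-5p was at -0.82, -0.21 and -1.03, miR-204-3p at -0.42, 0.04 and -0.38, and miR-211-5p at -0.12, 0.73 and 0.61 in the order of comparisons above, and 0 miRNAs passed in each. Depth limits miR-204-3p most, at 18 to 85 counts per library. At a mean of at least 10 CPM it was not tested.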

Other observations

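The miR-204 hairpin was among the more one-sided ones in these libraries. Over 172 hairpins with both arms listed under 1 name, both counted, and at least 10 CPM for their sum, the major arm exceeded the minor arm by a median of 33.2 times, with an upper quartile of 378. For miR-204 the mean level of the 5p arm was 1413 times that of the 3p arm, which ranked 27 of 172. Small RNA libraries capture strands unequally, so these ratios describe counts and not strand numbers in the cell.

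Other marker lists were read beside the members. Red blood cell rows summed to 3071 to 3563 CPM in VEH, 2710 to 3091 CPM in MK-801 and 2973 to 3268 CPM in MK-801+CLO. Oligodendrocyte rows summed to 4373 to 6460, 4344 to 7344 and 4315 to 6509 CPM in the same order. Rows of Hox clusters, which mark hindbrain and spinal cord, summed to 201 ± 218 CPM in VEH (SD, n = 3), with the lowest value, 36.5 CPM, in replicate 3, the library with the highest miR-204-5p. They came to 53.8 to 70.9 CPM in MK-801 and 17.3 to 96.2 CPM in MK-801+CLO.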
